A study of Mus musculus with 6 samples.

Results

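The genes described here carry the unfolded protein response of the endoplasmic reticulum (ER) and the integrated stress response. The 40 members were taken by name, as the array probe sets whose single gene symbol is one of a fixed list, with the brightest probe set standing for a gene where there were several; all 40 were found, among 19938 single symbols on the array. They are 15 Atf4-type targets, 14 ER chaperones and folding factors, 4 factors of ER-associated degradation, 4 stress sensors, and Atf4, Xbp1 and Ppp1r15b. Total RNA of 3 yolk sacs from Tnrc6a (GW182) mutant mouse embryos and of 3 yolk sacs from wild-type littermates, all at embryonic day 9.5, was measured on Mouse Gene 1.0 ST arrays. The mutants are written as homozygous for a gene-trap allele in the design text, and Tnrc6a encodes GW182, the partner of Argonaute that recruits the enzymes of mRNA decay to microRNA targets. Each yolk sac came from a single embryo, and the genotype labels of both groups also carry the word mixed, which is not explained; the sources used here give neither strain, trap position nor litters.

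When unfolded proteins collect in the ER, the sensors Ern1 (IRE1), Eif2ak3 (PERK) and Atf6 start separate branches of a response that enlarges folding capacity. Eif2ak3 also belongs to the integrated stress response, in which it, the amino acid sensor Eif2ak4 (GCN2) and related kinases phosphorylate the initiation factor eIF2, general translation falls, and the mRNA of the transcription factor Atf4 is translated more. Atf4 then raises genes of amino acid supply and of feedback. The visceral endoderm of the yolk sac secretes large amounts of serum protein, so it depends on a well-supplied ER. Activation of Atf4 occurs largely in translation and that of Xbp1 in splicing, and the gene signals used here read neither.

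Tnrc6a, the targeted gene, had log2 signals of 7.81, 5.33 and 5.20 in the libraries labelled mutant 1, mutant 2 and mutant 3, against 8.40, 7.62 and 8.29 in wild types 1, 2 and 3. Tnrc6a thus does not bear out the label of mutant 1, which lay within the wild-type range, above wild type 2. The cause was not tested, and all mutant means below contain that library unless stated. The difference was -1.99 (limma adjusted p = 0.999; two-sided exact permutation p = 0.2, where 3 against 3 allows no less than 0.1). Visceral endoderm markers such as Afp and Ttr, which mark the tissue, had a mean log2 signal of 11.41 to 11.69 in the mutants and 11.53 to 11.58 in wild types over 13 of 15 listed markers, lowest in mutant 3; Alb was below the limit for dim probe sets, and Soat2 was not analysed here. Wild type 2 had the highest mean of trophoblast, decidua and parietal endoderm markers, 8.33 over the 6 of 15 listed markers that were tested. The mutants had 6.23 to 7.57 and the other wild types 6.26 and 6.44. Wild type 2 was the highest library for Prl4a1, Lamb1 and Thbd. Prl8a2 and Hand1 were highest in mutant 2 (9.11 and 7.62, against 7.44 and 7.53 in wild type 2). Plac1 was highest in mutant 3 (9.10, against 8.64 in wild type 2). Others of that list (Prl8a9, Tpbpa, Psg17, Ctsq, Ctsj and Cts7) were below the dim limit in the mean of all arrays. Primitive erythroid markers were lowest in mutant 2, with 9.81 to 10.49 in the mutants and 10.49 to 10.61 in wild types over 8 of 10. All 8 had lower means in the mutants (median difference -0.29), 3 without overlap and 2 with an unadjusted limma p under 0.05. Of all tested probe sets 3.38% and 1.28% were so in that direction. Endothelial markers had 7.81 to 8.23 in the mutants and 7.62 to 7.94 in wild types. All 9 of 9 had higher means in the mutants (median difference 0.28), 4 without overlap and 3 with an unadjusted limma p under 0.05. Of all tested probe sets 5.17% and 2.25% were so in the higher direction. Mesenchymal markers had 8.68 to 9.27 and 8.70 to 9.46 (highest in wild type 2), and macrophage markers 5.84 to 6.18 and 6.03 to 6.21 (6 of 8 tested, Adgre1 and Aif1 being dim). Xist was high on 3 arrays (wild type 1, mutant 3 and the one labelled mutant 1) and low on the other 3, so each genotype held both patterns.

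No member differed between genotypes by the test across all genes. The median difference was -0.07 over the 15 Atf4-type targets, with 11 lower and 4 higher in the mutants. Over the 14 ER chaperones it was -0.04, with 11 lower and 3 higher. Picked by size, the lowest single differences were those of Trib3, Mthfd2, Ppp1r15a, Asns, Ddit3 and Atf4, 1.17-fold to 1.34-fold lower in the mutants. The 4 targets with higher means were Atf3, Atf5, Chac1 and Cebpb. Dnajb9 was 1.2-fold higher, and the other chaperone means were close between genotypes. All 40 members were above the dim limit and were tested with limma, which called 0 of them at an adjusted p under 0.05, as it called 0% of the 16387 tested probe sets; the adjusted p was 0.999 for each member. At an unadjusted p under 0.05 there were 0 members in either direction, while of all probe sets 2.25% were so in the higher and 1.28% in the lower direction, and the lowest member p was 0.0633. The t-test that the study's methods name put 627 probe sets under 0.05, none after adjustment (lowest adjusted p = 0.451), and 0 members. The 95% intervals of all 40 differences included 0, and for 31 of them the difference was smaller than the larger of the standard deviations within the genotypes.

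By direction alone, 29 of 40 members (72.5%) had a mean below wild type, where 47.6% of all tested probe sets had, and their median difference was -0.05, against 0.01 over all probe sets, on the log2 scale. Genes of one pathway do not vary independently of each other, so that count is a description. When 1 library was left out, 21 to 33 of 40 were lower, with 21 of 40 and a median of -0.0081 without wild type 2, and a median of -0.10 without wild type 1. Wild type 2 held the highest value of 16 of the 40 members, against 12.3% over all tested probe sets, and mutant 3 the lowest of 16, against 17.5%. In wild type 2 the markers of trophoblast and decidua (median deviation from the wild-type mean 1.24), mesenchyme (0.41) and endothelium (0.17) were above the wild-type mean for 6 of 6, 10 of 10 and 9 of 9, and in mutant 3 the visceral endoderm markers were at their lowest (-0.17); their part in the result was not tested. In a whole yolk sac, fewer cells of a type and less RNA per cell cannot be told apart.

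**Figure D1:**
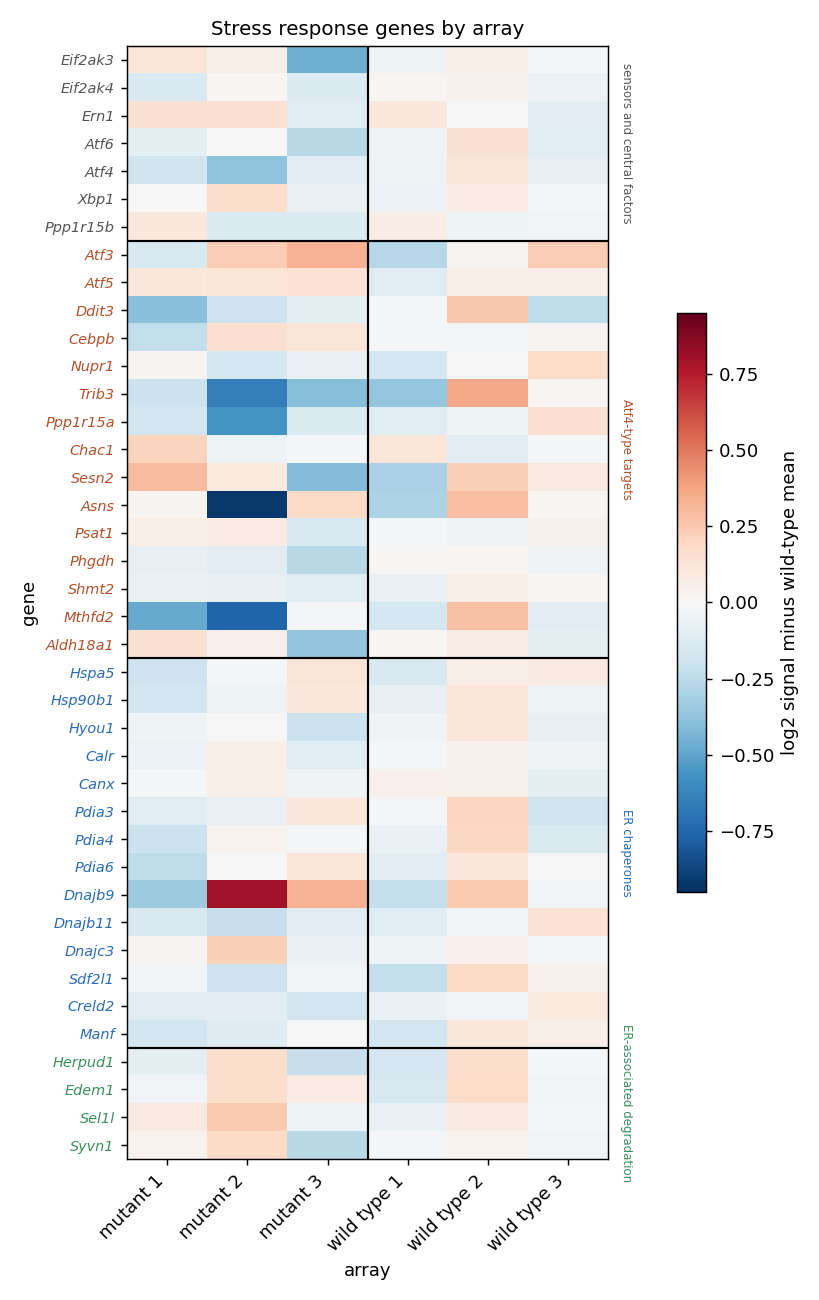
Log2 signal of each of the 40 genes (rows, grouped by role) on each array (columns, mutants left of wild types), minus the gene's wild-type mean; blue is lower and red is higher. The darkest cells are those of mutant 2, with Asns at -0.92 and Mthfd2 at -0.76 and with Dnajb9 at 0.80, while most chaperone rows stay pale.

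Among the stress sensors the differences were small. Eif2ak3, the PERK kinase of the ER membrane, had log2 signals of 8.16, 8.10 and 7.58 in mutants 1 to 3, against 7.99, 8.11 and 8.03 in wild types 1 to 3. Mutant 3 lay apart below the other 5 libraries, and the difference of -0.10 (SE 0.15) was 0.09 without it. Atf6, the membrane-bound factor that is cleaved on stress, had 7.32, 7.40 and 7.14 in the mutants, against 7.37, 7.55 and 7.29 in wild types, a difference of -0.12 (SE 0.11) with overlapping groups. Eif2ak4, which binds uncharged tRNA, had 6.78, 6.94 and 6.79, against 6.94, 6.97 and 6.87, and also overlapped. Ern1, the kinase and nuclease that splices Xbp1 mRNA, differed by 0.06 (SE 0.10). Of the 7 sensors and central factors, 5 had their lowest value in mutant 3.

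Atf4 itself was lower in every mutant library than in every wild type, by a margin that the fit did not separate from noise. It had log2 signals of 8.06, 7.86 and 8.15 in mutants 1 to 3, against 8.20, 8.37 and 8.17 in wild types 1 to 3. Mutant 3 and wild type 3 were close together, so the groups only just failed to overlap. The difference was -0.22 (SE 0.10; 95% interval -0.47 to 0.02; limma adjusted p = 0.999). Over all members the mutants lay wholly below wild type for 4 (Atf4, Ppp1r15a, Phgdh and Creld2) and wholly above for 1 (Atf5), where 3.38% of all tested probe sets lay wholly below and 5.17% wholly above. Xbp1, the factor of the Ern1 branch that drives chaperone and degradation genes, had 9.79, 9.95 and 9.72 in the mutants, against 9.73, 9.86 and 9.77 in wild types, a difference of 0.03 (SE 0.09). Its values interleaved, with mutant 2 highest and mutant 3 lowest. Ppp1r15b, the constantly expressed subunit that directs dephosphorylation of eIF2, had 8.14, 7.91 and 7.90, against 8.11, 7.99 and 8.01, and its other probe set differed in the opposite direction, at 0.11 (SE 0.09), against -0.05 (SE 0.09).

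The 15 Atf4-type targets had lower means in the mutants for 11 and higher means for 4, with a median difference of -0.07 on the log2 scale. When 1 library was left out, 8 to 12 of 15 were lower, and the median was -0.14 without the library labelled mutant 1 and also -0.14 without wild type 1. Atf4 binds, with a C/EBP partner, a composite element whose core reads TGATGNAA. That core was present, on either strand, in the RefSeq promoter window (250 bases before to 50 after the start) of 5 of the 15 targets, Atf3, Nupr1, Trib3, Chac1 and Asns, in 1 of the 4 degradation genes (Herpud1), in none of the 12 chaperones with a window, and in 3.97% of all 32851 windows. The matches of the 3 genes among these that are described below with all their values are shown, 5′ to 3′ on the gene's strand in GRCm38.p6, with the match in capitals; in Atf3 and Trib3 it lies on the other strand and so reads as its reverse complement. The stretches are chr1:191183406-191183473 (minus strand) for Atf3, with the match at positions -110 to -103 from the start, chr2:152344039-152344076 (minus strand) for Trib3, with the match at positions 15 to 22, and chr6:7693210-7693262 (minus strand) for Asns, with the match at positions -23 to -16.
Atf3: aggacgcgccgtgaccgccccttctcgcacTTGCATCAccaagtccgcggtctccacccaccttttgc
Trib3: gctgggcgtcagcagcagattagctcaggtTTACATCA
Asns: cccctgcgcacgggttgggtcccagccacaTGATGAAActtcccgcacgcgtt

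Genes with this core did not share a direction: Trib3, Asns and Nupr1 had lower and Atf3 and Chac1 higher means in the mutants. A match is a run of letters and does not show binding, and a gene without one in its window may carry the element elsewhere.

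The feedback genes gave the lowest p among the targets. Trib3, a pseudokinase that restrains Atf4 and Akt, had log2 signals of 7.20, 6.75 and 7.00 in mutants 1 to 3, against 7.04, 7.76 and 7.41 in wild types 1 to 3. Wild type 1 lay below the library labelled mutant 1, so the groups overlapped, and the wild types ranged over 0.72. The difference was -0.42 (SE 0.19; 95% interval -0.87 to 0.03; limma adjusted p = 0.999), and it was -0.24 without wild type 2. Ppp1r15a, the stress-induced subunit that directs dephosphorylation of eIF2, had 6.39, 6.002 and 6.43 in the mutants, against 6.46, 6.53 and 6.72 in wild types. The groups did not overlap, though mutant 3 and wild type 1 were close and mutant 2 was the lowest, and the difference was -0.29 (SE 0.13; limma adjusted p = 0.999). Sesn2, which senses leucine and restrains mTORC1, had 7.53, 7.32 and 6.81, against 6.91, 7.45 and 7.31, with the highest and the lowest value both in mutants. Chac1, an enzyme that degrades glutathione, differed by 0.05 (SE 0.10).

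Of the transcription factors downstream of Atf4, Ddit3 (CHOP), which promotes death in prolonged stress, had log2 signals of 5.36, 5.57 and 5.67 in mutants 1 to 3, against 5.75, 6.02 and 5.52 in wild types 1 to 3. Wild type 3 lay below mutants 2 and 3, and the difference was -0.23 (SE 0.14). Atf5, a relative of Atf4 that is controlled by translation in the same way, had 5.88, 5.91 and 5.92, against 5.67, 5.84 and 5.84, the only member with all mutants above all wild types, by 0.12 (SE 0.08). Atf3, a repressor induced by many stresses, had 6.84, 7.22 and 7.31, against 6.71, 7.01 and 7.23, and its spread within each genotype was larger than the difference of 0.14 (SE 0.17). Cebpb, a partner of Atf4, and Nupr1, a small chromatin protein of the stress response, differed by 0.01 (SE 0.11) and -0.07 (SE 0.11). These factors were thus mixed in direction, and Ddit3, the classical mark of strong ER stress, was not higher in any mutant library than in all wild types.

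**Figure D2:**
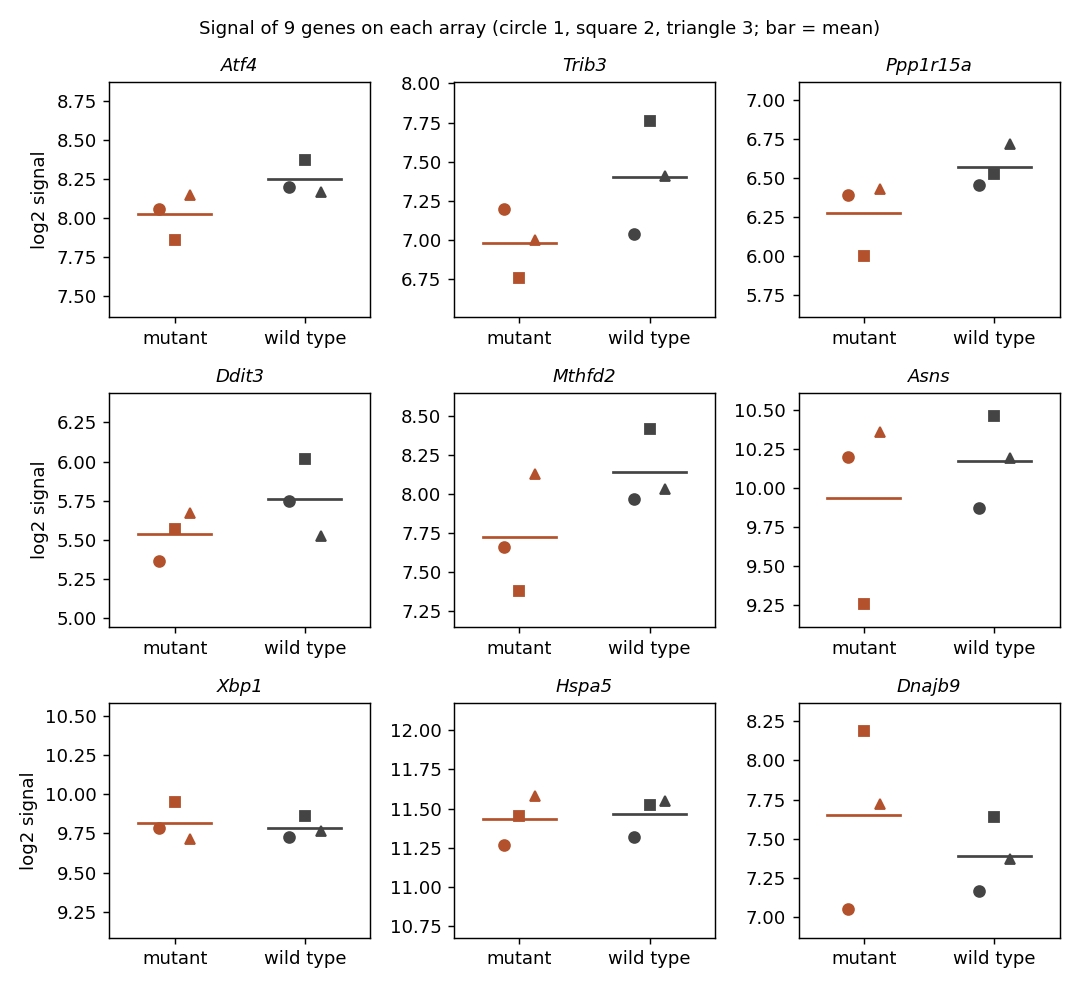
Log2 signal of 9 genes on each array, mutants left of wild types; the marker shape gives the replicate number, the bar the genotype mean, and every panel spans 1.5 log2 units. Mutant 2 (square) is the lowest library for Atf4, Trib3, Ppp1r15a, Mthfd2 and Asns and the highest for Xbp1 and Dnajb9.

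The amino acid and one-carbon enzymes all had lower means in the mutants, 6 of 6, with a median of -0.12, but by unlike amounts. Over all tested probe sets 47.6% had lower means. Mthfd2, a mitochondrial enzyme of folate metabolism, had log2 signals of 7.66, 7.38 and 8.13 in mutants 1 to 3, against 7.97, 8.41 and 8.03 in wild types 1 to 3. Mutant 3 lay among the wild types, the groups overlapped, and the difference was -0.41 (SE 0.20; 95% interval -0.89 to 0.06; limma adjusted p = 0.999). Asns, asparagine synthetase, had 10.20, 9.26 and 10.36, against 9.87, 10.46 and 10.19. Mutant 2 lay apart below all the others, the mutants ranged over 1.10, and the difference of -0.24 (SE 0.29) was 0.11 without mutant 2. Phgdh, which opens serine synthesis from a glycolytic intermediate, had 9.66, 9.64 and 9.48, against 9.75, 9.76 and 9.71, with no overlap and a difference of -0.15 (SE 0.08). Psat1, the next enzyme of that path, had 11.44, 11.46 and 11.25, against 11.38, 11.36 and 11.43, a difference of -0.0040 with a 95% interval of -0.21 to 0.20. Shmt2, which passes a carbon from serine to folate, and Aldh18a1, which opens proline synthesis, differed by -0.08 (SE 0.08) and -0.06 (SE 0.14). Asns and Mthfd2 were both lowest in mutant 2, and Psat1, Phgdh, Shmt2 and Aldh18a1 in mutant 3.

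Further genes known to answer to Atf4, from lists that also had earlier results in view, were set beside the members. Of 11 tested cytosolic aminoacyl-tRNA synthetase genes, which charge tRNA with amino acids, 11 had lower means in the mutants, with a median of -0.12 and 0 past the test. Over all tested probe sets 47.6% had lower means. The mutants lay wholly below wild type for 2 of the 11, Mars1 and Nars, against 3.38% of all tested probe sets. Tars, for threonine, had log2 signals of 8.63, 8.61 and 8.80 in mutants 1 to 3, against 8.76, 8.995 and 8.96 in wild types 1 to 3, a difference of -0.22 (SE 0.10). Mars1, for methionine, had 9.33, 9.13 and 9.39, against 9.42, 9.54 and 9.51, with no overlap and a difference of -0.20 (SE 0.09). Mutant 2 held the lowest value of 9 of the 11 synthetases and wild type 2 the highest of 6. Over all tested probe sets those shares were 18.4% and 12.3%. The median deviation from the wild-type mean was -0.14, -0.28 and -0.04 in mutants 1 to 3, while wild types 1 to 3 had -0.06, 0.04 and 0.02.

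Amino acid transporter genes were also mostly lowest in mutant 2. Of 8 tested, 7 had lower means in the mutants, with a median of -0.27 and 0 past the test. Of these, 1, Slc7a1, had an unadjusted limma p under 0.05. Over all tested probe sets 47.6% had lower means and 1.28% were lower with such a p. The mutants lay wholly below wild type for 2 of the 8, Slc7a1 and Slc6a9, against 3.38% of all tested probe sets. Slc7a1, which carries cationic amino acids, had log2 signals of 7.06, 6.65 and 6.93 in mutants 1 to 3, against 7.14, 7.58 and 7.13 in wild types 1 to 3, a difference of -0.40 (SE 0.16; limma adjusted p = 0.999) that was -0.26 without wild type 2. Slc6a9, a glycine transporter, had 8.13, 7.37 and 8.10, against 8.18, 8.13 and 8.42, and the mutants were all lower, though mutant 1 and wild type 2 were all but equal. Mutant 2 held the lowest value of 6 of the 8 and wild type 2 the highest of 5, against 18.4% and 12.3% of all tested probe sets. The median deviation of these 8 genes was -0.13, -0.43 and -0.15 in mutants 1 to 3, against -0.10, 0.18 and -0.11 in wild types 1 to 3. Slc7a11, the cystine transporter, was below the dim limit.

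The remaining Atf4-linked list was mixed in direction. Of 11 tested genes of serine, cysteine and folate metabolism and of stress, 6 had higher and 5 lower means in the mutants, with a median of 0.0036 and 0 past the test; Cth, which makes cysteine from cystathionine, differed by -0.26 (SE 0.13) and Stc2, a secreted stress protein, by 0.26 (SE 0.15). Among 11 tested genes of the eIF2 kinases, eIF2, its exchange factor eIF2B and the GCN2 regulators Gcn1 and Impact, 7 were lower with a median of -0.08 and 0 past the test. Eif2ak2 (PKR), the kinase that answers to double-stranded RNA, had log2 signals of 6.64, 6.85 and 6.75 in mutants 1 to 3, against 6.59, 6.598 and 6.36 in wild types 1 to 3, with no overlap and a difference of 0.23 (SE 0.10). Eif2b3, a subunit of eIF2B, differed by -0.21 (SE 0.11). In 2 other eIF2B subunit genes, Eif2b2 (-0.08, SE 0.07) and Eif2b4 (-0.07, SE 0.07), the mutants lay wholly below wild type. Of all tested probe sets 3.38% lay wholly below and 5.17% wholly above. Mutant 2, the lowest library for synthetases and transporters, was also the lowest for primitive erythroid markers, at a median deviation of -0.76, where the other mutants had -0.07 and -0.11 and wild types -0.05 to 0.03; the part of these cells in the values of mutant 2 was not tested.

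**Figure D3:**
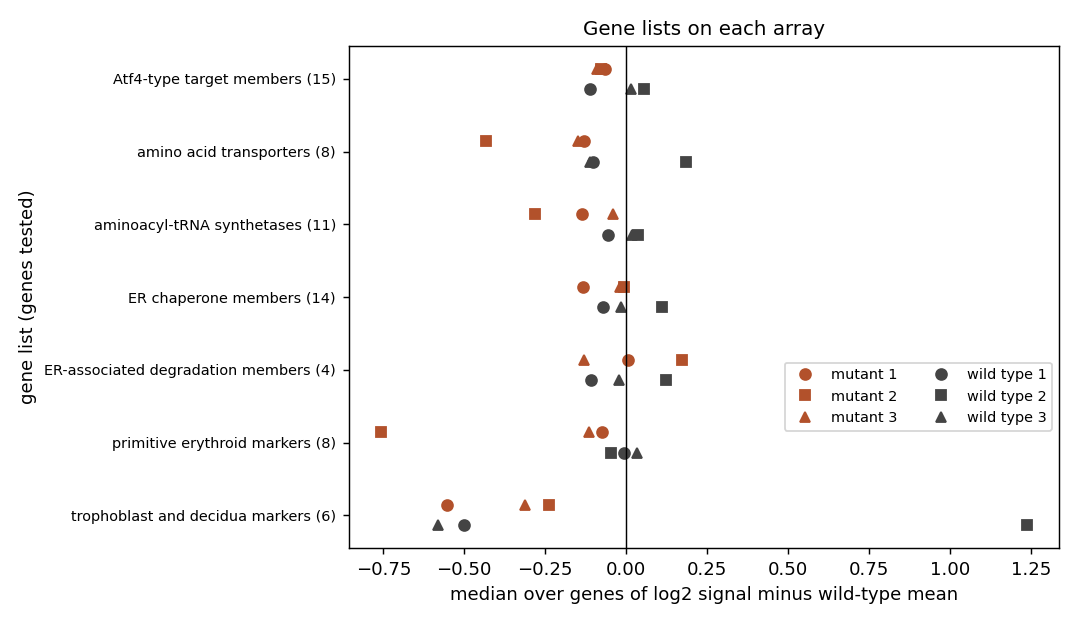
Median over the tested genes of a list of the log2 signal minus the wild-type mean, for each array (brown, mutants; grey, wild types; shapes give the replicate number). Mutant 2 is lowest for transporters (-0.43), synthetases (-0.28) and primitive erythroid markers (-0.76), and wild type 2 stands apart in trophoblast and decidua markers (1.24).

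The ER chaperones were nearly level between genotypes. Of 14, 11 had lower and 3 higher means in the mutants, with a median difference of -0.04 on the log2 scale. That majority rested on a pair of libraries: 6 of 14 were lower without the library labelled mutant 1 (median 0.01) and 5 of 14 without wild type 2 (median 0.0098), and without both the median was 0.06. For the 13 chaperones other than Dnajb9 the differences ran from -0.16 to 0.06, and their 95% intervals reached no further than -0.37 and 0.29, or 1.29-fold lower and 1.22-fold higher in the mutants, taking the libraries as labelled. With wild type 2 and the library labelled mutant 1 both left out, the difference was 0.12 for Pdia3 and 0.11 for Pdia4 and Pdia6.

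Many of these genes carry in their promoter the ER stress element, CCAAT and CCACG 9 bases apart, which Atf6 binds together with NF-Y. Searched on both strands, it was present in the RefSeq windows of 7 of the 12 chaperones with a window, Hspa5, Hsp90b1, Calr, Canx, Pdia6, Dnajc3 and Creld2, and of the degradation gene Syvn1, in none of the Atf4-type targets, and in 39 of all 32851 windows (0.119%). The related element II, ATTGG and CCACG 1 base apart, was present for Dnajb11 and Herpud1 and in 0.0365% of all windows. Both hold CCACG, which alone occurs in 32.8% of all windows, in 11 of the 12 chaperones and in 11 of the 15 Atf4-type targets. The unfolded protein response element TGACGTGG occurred in 0.676% of all windows and in no member's. The matches of chaperones whose values are described next are shown 5′ to 3′ on the gene's strand in GRCm38.p6, matches in capitals; those of Calr, Creld2 and the second of Hsp90b1 lie on the other strand, and Dnajb11 has element II. The stretches are chr2:34771995-34772073 (plus) for Hspa5, chr10:86705503-86705686 (minus) for Hsp90b1, chr8:84847045-84847123 (minus) for Calr, chr12:17266461-17266539 (plus) for Pdia6, chr14:118937797-118937875 (plus) for Dnajc3, chr15:88819490-88819568 (plus) for Creld2 and chr16:22857822-22857862 (plus) for Dnajb11.
Hspa5: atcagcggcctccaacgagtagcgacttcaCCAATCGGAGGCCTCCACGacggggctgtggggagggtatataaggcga
Hsp90b1: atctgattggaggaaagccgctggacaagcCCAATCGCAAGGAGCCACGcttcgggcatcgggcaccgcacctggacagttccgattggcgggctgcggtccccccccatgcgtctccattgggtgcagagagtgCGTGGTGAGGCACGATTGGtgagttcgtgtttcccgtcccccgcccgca
Calr: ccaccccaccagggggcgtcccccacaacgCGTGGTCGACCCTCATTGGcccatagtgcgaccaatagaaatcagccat
Pdia6: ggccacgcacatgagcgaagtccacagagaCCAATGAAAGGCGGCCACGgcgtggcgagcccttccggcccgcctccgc
Dnajc3: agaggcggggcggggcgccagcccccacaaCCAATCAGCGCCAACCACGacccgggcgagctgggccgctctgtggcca
Creld2: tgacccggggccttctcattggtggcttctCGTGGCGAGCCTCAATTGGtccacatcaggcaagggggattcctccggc
Dnajb11: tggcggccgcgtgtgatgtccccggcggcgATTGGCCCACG

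Hspa5 (BiP), the ER Hsp70 that also holds the sensors inactive, had log2 signals of 11.27, 11.45 and 11.58 in mutants 1 to 3, against 11.32, 11.52 and 11.55 in wild types 1 to 3. The genotypes interleaved, and the difference was -0.03 (SE 0.11; 95% interval -0.29 to 0.23). Hsp90b1 (GRP94), the ER Hsp90, had 11.70, 11.82 and 11.97, against 11.79, 12.00 and 11.83, a difference of -0.04 (SE 0.10). Both chaperones were lowest in the library labelled mutant 1. Calr, a calcium-binding lectin that folds glycoproteins, had 11.42, 11.54 and 11.36, against 11.47, 11.52 and 11.45, and its membrane-bound partner Canx differed by 0.0010 (SE 0.08). Hyou1, the exchange factor of Hspa5, had 9.48, 9.52 and 9.32, against 9.49, 9.64 and 9.44, a difference of -0.08 (SE 0.09).

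The disulphide isomerases, which form and rearrange disulphide bonds, interleaved between genotypes too. Pdia3, which works with Calr and Canx, had log2 signals of 11.36, 11.41 and 11.58 in mutants 1 to 3, against 11.46, 11.68 and 11.28 in wild types 1 to 3. Pdia4 had 10.34, 10.58 and 10.53, against 10.48, 10.75 and 10.41, and Pdia6 had 10.86, 11.10 and 11.22, against 10.99, 11.21 and 11.11. The differences of the 3 genes were -0.02 (SE 0.12), -0.06 (SE 0.12) and -0.04 (SE 0.11), and each gene overlapped between genotypes. The other probe set of Pdia4 differed by -0.10 (SE 0.12).

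Among the J proteins and small induced factors, Dnajb9 (ERdj4), which returns Ern1 to its inactive state and is induced through Xbp1, varied most among embryos. It had log2 signals of 7.05, 8.19 and 7.72 in mutants 1 to 3, against 7.17, 7.64 and 7.37 in wild types 1 to 3. The highest and the lowest library were both mutants, and the mutant range of 1.14 exceeded the difference of 0.26 (SE 0.27; 95% interval -0.37 to 0.89). Without mutant 2 the difference was -0.0049 and without the library labelled mutant 1 it was 0.56; Dnajb9 is described at length because of these values and not by the rule for named genes. Dnajb11 (ERdj3), a cofactor of Hspa5, had 9.43, 9.36 and 9.48, against 9.47, 9.56 and 9.72, a difference of -0.16 (SE 0.09) in which mutant 3 lay just above wild type 1. Creld2, a small secreted ER protein with isomerase activity, had 8.87, 8.87 and 8.80, against 8.92, 8.95 and 9.07, with no overlap and a difference of -0.13 (SE 0.08).

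Dnajc3 (p58IPK), a J protein of the ER lumen, had log2 signals of 10.32, 10.52 and 10.23 in mutants 1 to 3, against 10.26, 10.35 and 10.29 in wild types 1 to 3, highest in mutant 2 as Dnajb9 and Xbp1 were. Its 2 probe sets held equal values on all arrays. Sdf2l1, which assists Hspa5, and Manf, a secreted ER protein that stabilises Hspa5 complexes, differed by -0.08 (SE 0.12) and -0.10 (SE 0.10), with overlapping groups.

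The 4 genes of ER-associated degradation, which sends misfolded proteins to the proteasome, had 2 lower and 2 higher means in the mutants and a median difference of 0.03; without mutant 3, or without wild type 2, 0 of 4 were lower. Sel1l, the adaptor of the ubiquitin ligase, had log2 signals of 9.54, 9.71 and 9.42 in mutants 1 to 3, against 9.40, 9.54 and 9.44 in wild types 1 to 3, a difference of 0.10 (SE 0.10). Edem1, a lectin that extracts glycoproteins from folding, had 8.59, 8.79 and 8.70, against 8.47, 8.80 and 8.59, a difference of 0.07 (SE 0.11). The ligase gene Syvn1 (Hrd1) and Herpud1, which joins the ligase complex, differed by -0.02 (SE 0.12) and -0.05 (SE 0.13). Mutant 2 was the highest library for 3 of the 4, and the median deviation was 0.0055, 0.17 and -0.13 in mutants 1 to 3; wild types 1 to 3 had -0.11, 0.12 and -0.02. Over all 40 members mutant 2 held the highest value of 10 and the lowest of 7 (25.0% and 17.5%). Over all tested probe sets mutant 2 held the highest value of 17.1% and the lowest of 18.4%, so its share of lowest values was near that of all probe sets.

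**Figure D4:**
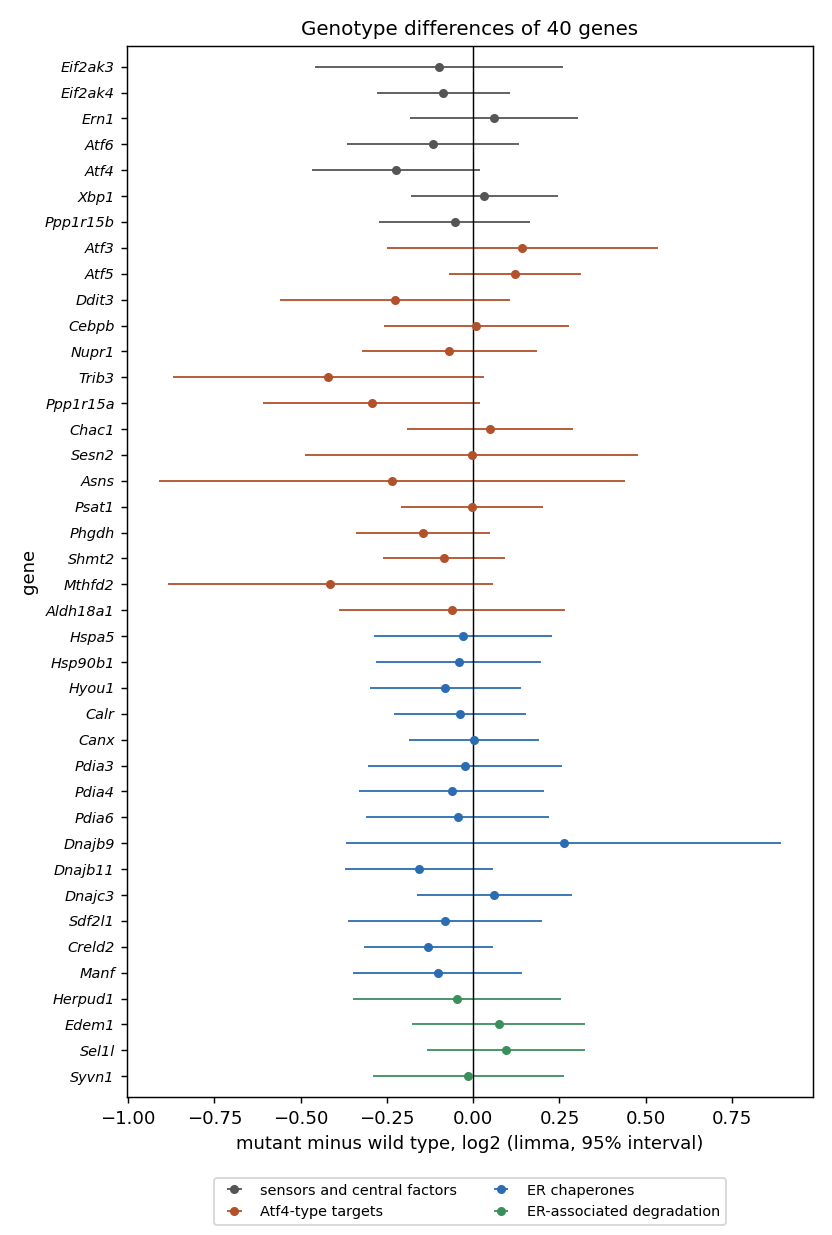
Mutant minus wild type on the log2 scale for the 40 genes, with limma's 95% interval (3 yolk sacs each), coloured by role. All intervals include 0. Those of most chaperones are narrow, and those of Asns, Dnajb9, Sesn2, Mthfd2 and Trib3 are the widest.

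Other folding systems were read for comparison. Of 20 further ER chaperone and folding genes, 12 were lower and 8 higher in the mutants (median -0.04), with Sil1, an exchange factor of Hspa5, at 0.15 (SE 0.10) and the prolyl isomerase gene Fkbp11 at -0.19 (SE 0.15). Of 13 further degradation factors, 7 were lower and 6 higher (median -0.03), with the ubiquitin-conjugating enzyme gene Ube2j1 at 0.16 (SE 0.10) and the lectin gene Os9 at 0.14 (SE 0.12). Of 9 further transducers of the response, 8 were higher (median 0.04), with Mbtps1, the protease that cleaves Atf6, at 0.11 (SE 0.10) and Creb3l1, a relative of Atf6, at 0.16 (SE 0.14). Mutant 2 was the highest library for 6 of the 9, against 17.1% of all tested probe sets. In these 3 lists 0 genes passed the test and 0 had non-overlapping groups. Of all tested probe sets 5.17% lay wholly above and 3.38% wholly below wild type.

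Cytosolic and mitochondrial chaperones also had mostly lower means. Of 8 cytosolic heat shock genes, 7 were lower in the mutants (median -0.04), 0 passed the test and 1, Hspb1, had an unadjusted limma p under 0.05. Over all tested probe sets 47.6% were lower, 1.28% were lower with such a p, and 3.38% lay wholly below wild type. The array has 2 probe sets for Hspb1, and the values of the brighter one are given. Hspb1 (Hsp27), a small heat shock protein, had log2 signals of 7.55, 7.55 and 7.42 in mutants 1 to 3, against 7.71, 7.81 and 7.98 in wild types 1 to 3. The groups did not overlap, and the difference was -0.33 (SE 0.10; limma adjusted p = 0.999), between -0.39 and -0.25 when 1 library was left out. Hsph1, a cytosolic exchange factor, differed by -0.18 (SE 0.10). Of 7 mitochondrial chaperones and proteases, 7 were lower (median -0.07) and 0 passed the test; Clpp, a matrix protease, had 8.33, 8.37 and 8.35, against 8.45, 8.51 and 8.65, with no overlap and a difference of -0.19 (SE 0.08), and the cochaperone gene Hspe1 differed by -0.15 (SE 0.09).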

How the data were processed

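The authors' deposited values of 35557 probe sets are on a log2 scale, as read from their range (0.657 to 13.7). The submitters' processing notes name MAS5 and no other tool; how background, probe summary and normalization were done is not stated there. Array medians were 5.19 to 5.22, so no further scaling was applied; no pair of arrays shared over 122 equal values. GEO's platform annotation gave 1 symbol for 21789 probe sets, several for 1621 and none for 12147. A probe set entered the test if it had a symbol and its mean over the arrays reached 4.29, the 30th percentile, which left 16387.

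The genotype difference was fitted without a block in limma 3.58.1 (R 4.3.3; lmFit, eBayes; 4 residual and 3.47 prior degrees of freedom). Tests were two-sided and Benjamini-Hochberg adjustment ran across every probe set in the fit, with 0.05 as the limit. The fit was tested on simulated data. Precision is set by the number of arrays, with a median half-width of 0.24 for a 95% interval. The 40 members, their roles, the 9 further pathway lists and the 6 marker lists were chosen with earlier results of these data known, so counts over them are descriptions. Values on all arrays are printed for the 2 members with the lowest p and the brightest member of each of 9 role groups, for members whose genotypes did not overlap, and for Atf4, Xbp1, Hspa5, Ddit3, Trib3 and Asns; of each further list the 2 genes with the lowest p are named. Listed genes not counted as tested were dim or not analysed here. Promoter windows are RefSeq's (GRCm38.p6); 36 of the 40 members were matched, Atf6, Ppp1r15b, Hyou1 and Manf being the others. A match is printed with up to 30 bases on each side. The alternatives changed the normalization (quantile), the dim filter (none, or the 50th percentile), the variance model, the array weighting, the test (as named in the methods), the pairing of replicate numbers, the libraries included and the rule for several probe sets.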

Additional observations from a re-analysis of the deposited data

How the results depend on the processing

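Each of 58 named genes was recomputed under up to 15 alternatives; 815 of 867 values kept the sign of the difference and 52, in 23 members, did not, and no named gene passed the adjusted threshold except Tnrc6a in 1 setting. Without wild type 2 and mutant 1, limma called 1 probe set, Tnrc6a, at -3.08 (adjusted p = 0.00285). For Tnrc6a itself the genotypes overlap only through these libraries (7.62 in wild type 2, 7.81 in mutant 1). Dropping them had to enlarge that gene's difference, so the call is no independent test of Tnrc6a. The other settings called 0, and leaving out 1 library gave 0 calls and Tnrc6a differences of -2.84 to -1.54. The median of the Atf4-type targets ran from -0.14 to -0.057 and that of the ER chaperones from -0.098 to 0.010 when 1 library was left out, and the chaperone median was 0.059 without wild type 2 and mutant 1. Without that pair the sign turned for Chac1 (-0.083), Hspa5 (0.084), Hsp90b1 (0.086), Pdia3 (0.12), Pdia4 (0.11), Pdia6 (0.11) and Herpud1 (0.058). With array weights it turned for Eif2ak3 (0.018), Cebpb (-0.011), Sesn2 (0.16), Psat1 (0.037), Aldh18a1 (0.031), Herpud1 (0.039) and Syvn1 (0.064), with quantile normalization for Canx (-0.0066), and with several probe sets averaged for Ppp1r15b (0.029). Leaving out 1 library turned signs within these ranges: Eif2ak3 -0.20 to 0.085, Xbp1 -0.034 to 0.083, Cebpb -0.061 to 0.13, Nupr1 -0.15 to 0.017, Chac1 -0.033 to 0.11, Sesn2 -0.16 to 0.20, Asns -0.45 to 0.11, Psat1 -0.044 to 0.065, Aldh18a1 -0.16 to 0.096, Hspa5 -0.10 to 0.054 and Hsp90b1 -0.11 to 0.023. The same held for Calr -0.087 to 0.0022, Canx -0.045 to 0.025, Pdia3 -0.12 to 0.078, Pdia4 -0.13 to 0.037, Pdia6 -0.12 to 0.055, Dnajb9 -0.0049 to 0.56, Dnajc3 -0.021 to 0.13, Sdf2l1 -0.19 to 0.011, Herpud1 -0.15 to 0.039, Edem1 -0.0025 to 0.16 and Syvn1 -0.11 to 0.11. The cause was not tested. Counts over all members and within role groups under each alternative were added after seeing the data. Same-numbered yolk sacs deviated together at r = 0.45, 0.15 and -0.11 for numbers 1 to 3, so the numbers were not taken as pairs; mutant 3 correlated best with wild type 2. With the replicate number as a block, 0 probe sets were called, and the differences were those without it (Atf4-type median -0.07, ER chaperones -0.04, Tnrc6a -1.99).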
